A study of Mus musculus with 17 samples.

Results

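Senescence-associated genes of the irradiated mouse lung were examined as a set of 9: the INK4 inhibitors Cdkn2a, Cdkn2b and Cdkn2c, the nuclear lamina gene Lmnb1, the lysosomal galactosidase gene Glb1, the urokinase receptor and ligand genes Plaur and Plau, and the insulin-like growth factor (IGF) binding protein genes Igfbp3 and Igfbp7. They were taken by gene symbol from a count table of 45777 genes, each symbol matched 1 row, and all 9 passed the filter on low counts with 22052 genes in all. The libraries came from lungs of male wild-type C57BL/6 mice that arrived at 6 weeks of age and were kept 1 week before the start. The irradiated mice received 65 or 75 Gy as a single focal dose to the left lung, and the controls received no radiation. Lungs were taken after 2 weeks, the inflammation stage, or after 6 weeks, the fibrosis stage, with 3 libraries in each group and 2 libraries in the 65 Gy group at 6 weeks. The study's methods say that RNA of irradiated lungs was drawn from the lesion, while the labels name left lung tissue without a lesion. Whether an irradiated library stands for the lesion or the whole left lung is therefore uncertain, the controls have no lesion, and all cell types of the sampled tissue are mixed in a library.

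Senescence is a lasting exit from the cell cycle that damaged cells enter and hold. It is held by inhibitors of the cyclin-dependent kinases CDK4 and CDK6, and the INK4 proteins bind these kinases directly. Senescent cells are commonly recognised by a rise of the INK4A product of Cdkn2a, by loss of lamin B1, by a lysosomal β-galactosidase activity that comes from Glb1, and by a secretome, the senescence-associated secretory phenotype (SASP), which holds cytokines, proteases and IGF binding proteins. The urokinase receptor is one of the surface proteins known from such cells. In irradiated lung, senescence has been described in the epithelium, the endothelium and macrophages, while most of these genes are also used by cells that are not senescent.

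The total count per library lay between 46764569 and 66797879. Markers of alveolar type 2 cells, 8 genes, summed to between 18528 and 34132 CPM, counts scaled to library size, in the 6 groups, and the 7 alveolar type 1 markers to between 3290 and 6847 CPM, as the lung label requires. In the 75 Gy group at 2 weeks, library 3134 stood apart. Its gene counts differed from those of its 2 group mates by a chi-square per degree of freedom of 224 and 129, against 93.8 between those mates. Control library 3126 of 2 weeks stood apart likewise, at 102 or more from either mate against 25.9 between them, and it enters every comparison with the controls of 2 weeks. Results that rest on either are given with and without it. The labels do not say that each library came from a separate mouse, so p-values measure the spread between these libraries only.

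Throughout, CPM is corrected by trimmed-mean-of-M-values (TMM) factors, a log2 fold change is the fitted difference of an irradiated group from the control group of the same time, and its error is a standard error (SE). The words rose and fell are kept for an adjusted p of at most 0.05 in edgeR's quasi-likelihood test, Benjamini-Hochberg adjusted over all 22052 genes. A differentially expressed gene (DEG) also changed by at least 1 on the log2 scale. The 65 and 75 Gy groups of a time were set against the same control libraries, so their results are not independent of each other.

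Markers of other cell types were measured beside the genes examined. DEGs among 10 neutrophil markers, all lower, numbered 6 and 6 at 65 and 75 Gy of 2 weeks and 3 and 5 at 6 weeks, and their summed level fell short of control in every irradiated library. Lymphocyte markers, 9 genes, summed to 218 to 409.6 CPM in control lungs of 6 weeks and to 476 to 1367 CPM in irradiated ones. Airway markers summed to 16557 to 20885 CPM in control and to 6537 to 13903 CPM in irradiated lungs. Cardiac muscle markers varied between 58.3 and 607 CPM, adipocyte markers between 15 and 133 CPM and erythroid markers between 1442 and 6905 CPM over all libraries, without a common direction at the 2 times. The part of these cells in the results below was not tested. In bulk tissue, a change in the number of cells of a type and a change of RNA per cell cannot be told apart.

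The question of the 4 comparisons with control lungs was which senescence-associated genes had changed at each stage and dose. Plau rose and Igfbp3 fell in all 4 of them. Glb1 rose by less than 2-fold in 3, and Cdkn2a rose in 1, at 75 Gy and 6 weeks. Igfbp7 rose at 75 Gy and 6 weeks as well, and Lmnb1 at 75 Gy and 2 weeks, where the call rested on library 3134. In no comparison did Lmnb1 fall, and Cdkn2b, Cdkn2c and Plaur passed in none. In counts, 2 of 9 were DEGs at 65 Gy and 2 weeks, against 4.35% of all genes tested. At 75 Gy and 2 weeks 2 of 9 were DEGs, against 7.74% of all genes. The number of DEGs among all genes there was 1707, and it was 1097 without library 3134 and 834 in a fit to the compared groups alone. At 6 weeks the DEGs numbered 2 of 9 at 65 Gy, against 5.28% of all genes, and 3 of 9 at 75 Gy, against 10.4%. At 65 Gy the number among all genes was 1164, and it was 604 without library 3138 and 743 without library 3140, the 2 libraries of that group. By the adjusted p alone, 3, 4, 2 and 5 of the 9 passed in these 4 comparisons in that order, and the shares among all genes were 11.0%, 22.3%, 14.7% and 36.0%. The irradiated and control libraries did not overlap for 5, 4, 5 and 6 of the 9, beside 29.4%, 30.2%, 56.3% and 57.1% of all genes. The plot of each gene's level by library and the plot of fitted changes show these values.

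**Figure D1:**
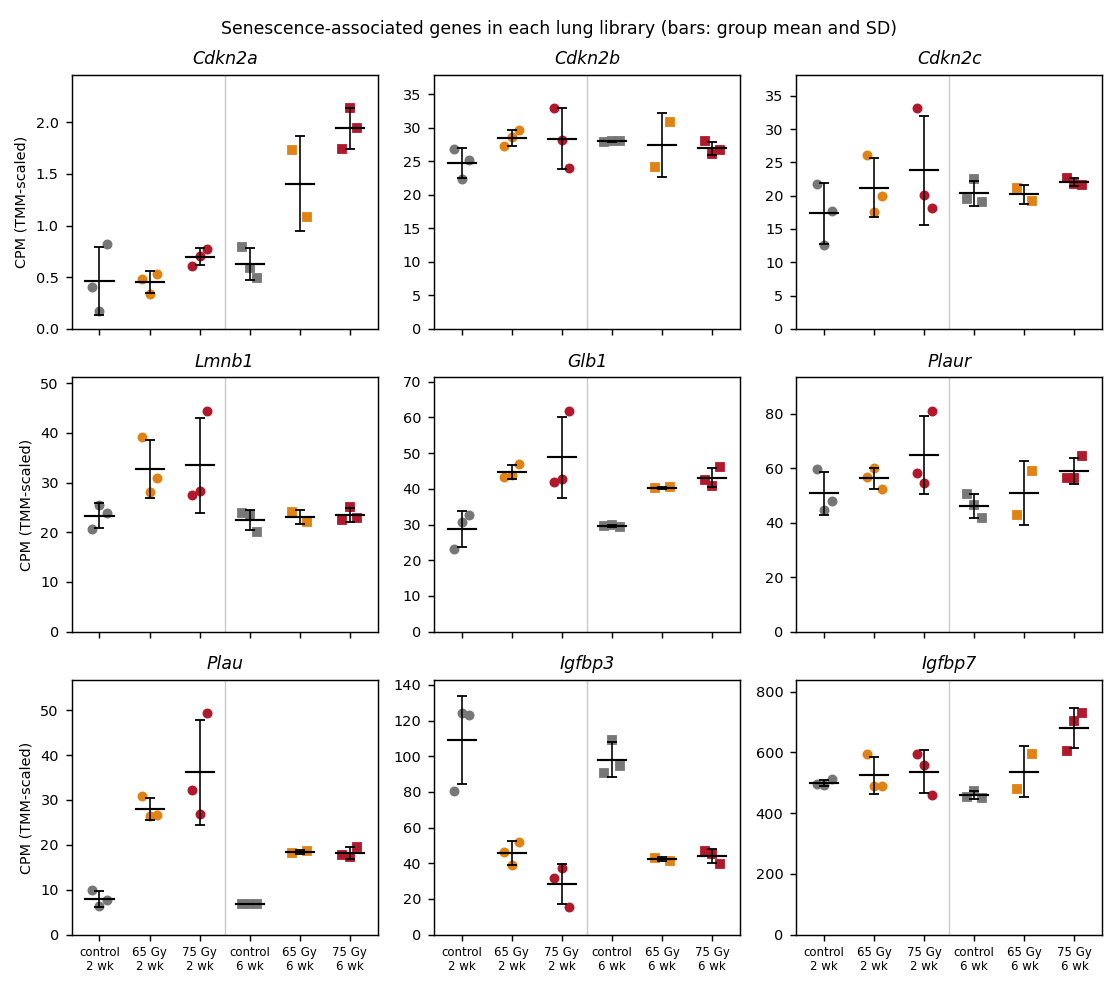
Level of each of the 9 genes in CPM (y axis, from 0, its own scale per panel) in the 17 libraries by group (x axis). Points are libraries (circles 2 weeks, squares 6 weeks), horizontal bars are group means and whiskers are SD. In the Plau panel all irradiated libraries lie above all control libraries, in the Igfbp3 panel all lie below them, and Cdkn2a is highest in the 75 Gy libraries of 6 weeks, at 1.74 to 2.14 CPM.

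**Figure D2:**
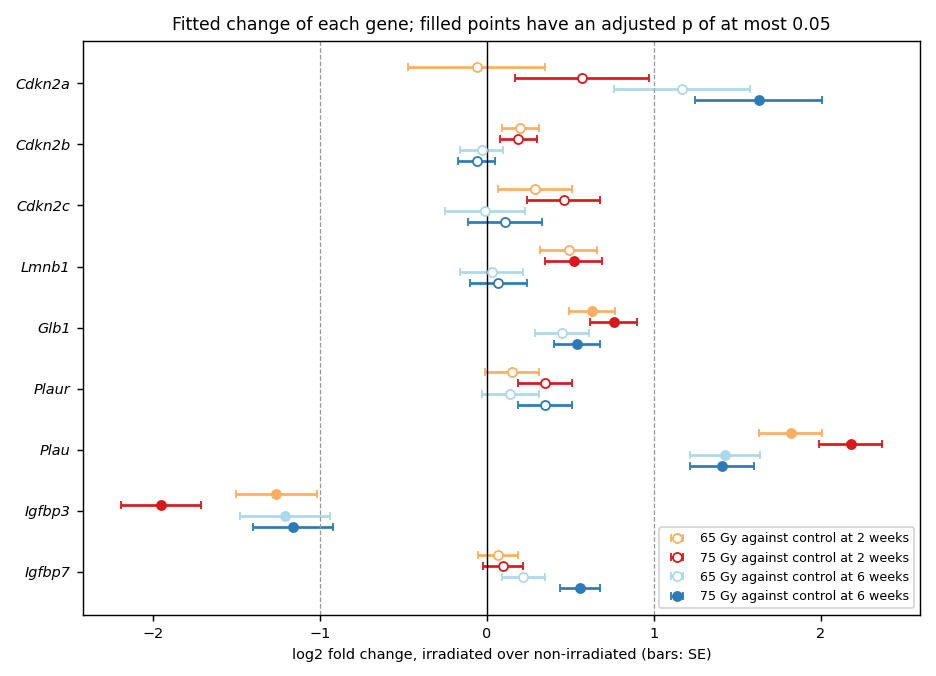
Fitted log2 fold change of each gene against the control group of the same time (x axis), with SE as bars and 1 point for each dose and time. Filled points have an adjusted p of at most 0.05 and dashed lines mark a change of 1. Plau lies at 1.41 to 2.18 and Igfbp3 at -1.16 to -1.95, while Cdkn2b lies at -0.06 to 0.20.

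Cdkn2a (gene ID 12578) lies on chromosome 4 (GRCm38.p6, 4:89274473-89294619, minus strand) and encodes 2 unrelated proteins from separate first exons, INK4A, which inhibits CDK4 and CDK6, and ARF, which holds back MDM2 and so stabilises p53. A count per gene cannot separate them, since the exons that follow are shared. The sequences show this for the GENCODE M21 transcripts of the same build: each runs over the last 45 coding bases of its own exon 1, in lower case, into the first 30 bases of the shared exon 2, in capitals (4:89276956-89276985). The exon 1 bases lie at 4:89281986-89282030 for INK4A and at 4:89294334-89294378 for ARF.
Cdkn2a INK4A transcript: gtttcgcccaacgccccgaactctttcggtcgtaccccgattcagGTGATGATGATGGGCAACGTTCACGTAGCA
Cdkn2a ARF transcript: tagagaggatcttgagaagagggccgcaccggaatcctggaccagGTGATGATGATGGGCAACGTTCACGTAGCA
Exon 1 takes 207 of 852 bases in the INK4A transcript and 320 of 895 in the ARF transcript. The larger share of either transcript is therefore sequence common to both, and the reading frame of exon 2 differs because exon 1 ends with a whole codon in INK4A and with 1 base of a codon in ARF.

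Cdkn2a was the lowest of the 9 genes, at 8 to 121 counts per library. At 6 weeks it stood at 0.795, 0.588 and 0.489 CPM in the control lungs, at 1.73 and 1.08 CPM after 65 Gy, and at 1.74, 2.14 and 1.94 CPM after 75 Gy. Every irradiated library of 6 weeks was above every control library. At 75 Gy it rose by 1.63 ± 0.38 (SE) on the log2 scale, 3.09-fold, with an adjusted p of 0.00429 (n = 3 and 3). The value after 65 Gy was 1.17 ± 0.41 with an adjusted p of 0.0726 (n = 2 and 3), which DESeq2 gave as 0.0383. At 2 weeks it stood at 0.406, 0.171 and 0.82 CPM in control lungs, at 0.484, 0.333 and 0.534 CPM after 65 Gy, and at 0.613, 0.709 and 0.774 CPM after 75 Gy. Those groups overlapped with the controls, with log2 fold changes of -0.06 ± 0.41 and 0.57 ± 0.40 and adjusted p of 0.948 and 0.336. Without control library 3128, the highest of its group, the 75 Gy value at 2 weeks was 1.26 with an adjusted p of 0.0352. The effect of 75 Gy at 6 weeks exceeded that at 2 weeks by 1.06 ± 0.55, with an adjusted p of 0.353, so a difference between the stages was not shown.

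Cdkn2b (INK4B, a target of TGF-β signalling) lies 11669 bases from Cdkn2a on the same strand (gene ID 12579, 4:89306289-89311032). It stood at 22.4 to 26.8 CPM in control lungs and at 24 to 33 CPM in irradiated lungs at 2 weeks, and at 27.9 to 28.1 CPM and 24.1 to 30.8 CPM at 6 weeks. At 75 Gy and 6 weeks its log2 fold change was -0.06 with a 95% interval of -0.30 to 0.19, and the 65 Gy value at 2 weeks was 0.20 with an interval of -0.04 to 0.45. Adjusted p ranged from 0.248 to 0.908 over the 4 comparisons. No upper limit of the 4 intervals exceeded 0.45.

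Cdkn2c (INK4C, gene ID 12580, 4:109660876-109666756) stood at 21.7, 12.6 and 17.7 CPM in control lungs of 2 weeks, at 26.1, 17.6 and 19.9 CPM after 65 Gy, and at 33.2, 20.1 and 18.1 CPM after 75 Gy. The groups overlapped, and the spread was wide within each. The 75 Gy value at 2 weeks was 0.46 ± 0.22 with an adjusted p of 0.152. Without control library 3126 it was 0.66 with an adjusted p of 0.0527. At 6 weeks all 8 libraries lay between 19.1 and 22.7 CPM, with log2 fold changes of -0.01 at 65 Gy and 0.11 at 75 Gy.

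Around the INK4 genes, 14 genes of the p53, CDK and RB pathways were listed. DEGs among them numbered 2, 2, 1 and 1 at 65 Gy and 75 Gy of 2 weeks and 65 Gy and 75 Gy of 6 weeks, all higher than control. By the adjusted p alone, 3, 4, 3 and 5 rose and 2, 2, 1 and 5 fell. The list's median log2 fold change was 0.19, 0.16, -0.13 and -0.01, beside -0.01, 0.00, 0.01 and 0.04 over all genes tested. Between control lungs of 6 and 2 weeks, 1 gene of the list was a DEG, lower at 6 weeks. Cdkn1a, which encodes the CDK inhibitor p21 and is the classical p53 target, stood at 99.9 ± 15.6 CPM (SD, n = 3) in control lungs of 2 weeks and at 48.7 ± 6.82 CPM in those of 6 weeks. It rose by 2.21 ± 0.16 at 65 Gy and by 2.25 ± 0.16 at 75 Gy at 2 weeks, with adjusted p of 1.16e-06 and 6.51e-07. At 6 weeks it rose by 2.21 ± 0.17 and by 2.41 ± 0.16, with adjusted p of 1.65e-06 and 2.33e-07. Cdkn1a was thus the DEG of this list in all 4 comparisons, from a level of a different order than Cdkn2a. Ccnd1, the cyclin D1 partner of CDK4 and CDK6, was the other DEG of 2 weeks, with log2 fold changes of 1.08 ± 0.13 and 1 ± 0.13. At 6 weeks it rose by 0.57 and 0.36. Mdm2, the p53 ubiquitin ligase that p53 itself induces, rose by 0.89 and 0.88 at 2 weeks and by 0.44 and 0.61 at 6 weeks.

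Lmnb1 encodes lamin B1, a filament of the inner nuclear membrane (gene ID 16906, 18:56707813-56753424, plus strand). Loss of its transcript is a common sign of senescence in culture, and its level was not lower here in any comparison. At 2 weeks it stood at 20.6, 25.5 and 23.9 CPM in control lungs, at 39.2, 28.1 and 30.9 CPM after 65 Gy, and at 27.6, 28.4 and 44.5 CPM after 75 Gy. All 6 irradiated libraries were above the 3 controls. At 75 Gy Lmnb1 rose by 0.52 ± 0.17 with an adjusted p of 0.0369, while the 65 Gy value was 0.49 ± 0.17 with an adjusted p of 0.0765. The 65 Gy value passed with DESeq2, with an adjusted p of 0.0411, and without library 3134, at 0.49 with an adjusted p of 0.0127. The call at 75 Gy rested on library 3134, without which it was 0.26 with an adjusted p of 0.219. It was also lost without any 1 of the 3 control libraries, with adjusted p of 0.0538 to 0.0904. In the 6-week lungs it stood at 20.1 to 23.9 CPM in control lungs and at 22 to 25.1 CPM in irradiated lungs. The log2 fold changes there were 0.03 at 65 Gy (95% interval -0.37 to 0.43) and 0.07 at 75 Gy (-0.29 to 0.42), so a fall by more than 0.37 lay outside both intervals.

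Lmnb1 is also higher in cycling cells, and 14 cycling-cell markers were measured beside it. Their summed level was 156 to 194 CPM in control lungs of 2 weeks, 312 to 469 CPM after 65 Gy and 325 to 516 CPM after 75 Gy. By the fibrosis stage it was 146 to 174 CPM in controls, 223 to 257 CPM after 65 Gy and 227 to 276 CPM after 75 Gy. No marker of the list was at 0 counts in any library. DEGs among the 14, all higher, numbered 10, 10, 3 and 7. The libraries with the highest summed level at each dose of 2 weeks, 469 CPM after 65 Gy and 516 CPM after 75 Gy, were also those with the highest Lmnb1, at 39.2 and 44.5 CPM. Mki67, which marks cycling cells, stood at 25.3 ± 2.01 CPM in control lungs of 2 weeks and rose by 1.64 ± 0.23 and 1.85 ± 0.23 there, while at 6 weeks its values were 0.73 ± 0.24 and 0.45 ± 0.22 with adjusted p of 0.059 and 0.131. The part of cycling cells in the Lmnb1 level was not tested.

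Of 12 other genes of the nuclear lamina and inner nuclear membrane, none was a DEG in any of the 4 comparisons. By the adjusted p, 1, 1, 0 and 0 rose and 2, 4, 3 and 5 fell. The list's median log2 fold change was -0.09, -0.15, -0.15 and -0.23. Lmna, the gene of lamins A and C, rose by 0.50 ± 0.11 at 65 Gy and by 0.34 ± 0.11 at 75 Gy at 2 weeks, with values of 0.21 and 0.04 at 6 weeks that did not pass. Lbr, the lamin B receptor, which anchors heterochromatin, fell from 86.6 ± 5.52 CPM in control lungs to 61.5 ± 3.63 and 59 ± 3.7 CPM at 2 weeks and from 83.5 ± 6.91 CPM to 60.4 ± 0.949 and 57.5 ± 3.02 CPM at 6 weeks (SD). The adjusted p of those 4 falls lay between 0.000262 and 0.0049. Sun1, a linker of the nuclear envelope to the cytoskeleton, fell by 0.36, 0.55, 0.57 and 0.69, and Tmpo, which encodes the lamina-associated polypeptide 2 proteins, fell by 0.47 and 0.46 at 6 weeks. Lmnb1 therefore did not move with its binding partners Lbr and Tmpo at 2 weeks, when its level in every irradiated library was above control and theirs fell or, for Tmpo at 65 Gy, stood at -0.17 with an adjusted p of 0.103.

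Glb1 encodes the lysosomal β-galactosidase (gene ID 12091, 9:114401078-114474379, plus strand). At 2 weeks it stood at 23.2, 30.6 and 32.7 CPM in control lungs, at 43.4, 43.8 and 46.8 CPM after 65 Gy, and at 41.9, 42.7 and 61.9 CPM after 75 Gy. After 6 weeks it stood at 29.6, 29.8 and 29.2 CPM in control lungs, at 40.1 and 40.5 CPM after 65 Gy, and at 42.4, 40.8 and 46 CPM after 75 Gy. Irradiated and control libraries did not overlap at either time. Glb1 rose by 0.63 ± 0.14 at 65 Gy and 0.76 ± 0.14 at 75 Gy at 2 weeks, 1.55- and 1.70-fold, with adjusted p of 0.0103 and 0.00155, and by 0.54 ± 0.14 at 75 Gy and 6 weeks, 1.46-fold, with an adjusted p of 0.00767. The value at 65 Gy and 6 weeks was 0.45 ± 0.16 with an adjusted p of 0.0654, and DESeq2 gave 0.0326. By edgeR it passed with upper-quartile factors, with an adjusted p of 0.0417. It also passed in a fit to the compared groups alone, at 0.48 with an adjusted p of 0.00152, but not in every alternative. Without library 3134 the 75 Gy value at 2 weeks was 0.55 with an adjusted p of 0.00445. In a fit to the compared groups alone it was 0.77 and did not pass, with an adjusted p of 0.0564. Without control library 3126 the 2-week values were 0.50 and 0.64, with adjusted p of 0.0247 and 0.00354. Tmppe lies on the same strand and shares 165 of the 3008 exonic bases of Glb1, and how reads there were assigned is not given in the sources used here.

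The lysosomal hydrolases beside it moved in the same direction. Of 16 other lysosomal glycosidases and their partner enzymes, 14, 15, 13 and 13 rose by the adjusted p in the 4 comparisons and none fell, with 4, 8, 2 and 5 DEGs. Without library 3134, 3 of 16 were DEGs at 75 Gy and 2 weeks. The list's median log2 fold change was 0.78, 0.96, 0.70 and 0.74, beside -0.01, 0.00, 0.01 and 0.04 over all genes. Glb1 lay below that median in each comparison. Fuca1 and Fuca2, the α-fucosidases, rose by 0.53 to 0.75 and by 0.53 to 0.73, with SE of 0.08 to 0.09. At 65 Gy and 6 weeks both rose, while Glb1 did not pass in the fit used throughout and passed in the alternatives named above.

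The promoter of Glb1 is shown because genes of lysosomal enzymes often carry the CLEAR-type E-box, the site of the lysosome regulator TFEB and its relatives. The 250 bases before the RefSeq start (GRCm38.p6, 9:114400828-114401077, plus strand) hold 1 match to GTCACGTG, in capitals, 50 bases before the start.
Glb1 promoter: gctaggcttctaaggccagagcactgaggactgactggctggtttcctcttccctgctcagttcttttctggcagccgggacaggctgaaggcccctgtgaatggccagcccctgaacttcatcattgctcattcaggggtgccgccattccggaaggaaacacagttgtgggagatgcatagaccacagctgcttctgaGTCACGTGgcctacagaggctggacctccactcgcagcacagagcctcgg
GTCACGTG, sought on both strands, was found in 1.85% of 32851 promoter windows of this length, and it was chosen with the Glb1 sequence in view. Promoters were given for 11 of the 16 listed lysosomal genes, and 3 of these held the letters as well. For Ctsa, windows before separate starts were given. That at 2:164833523-164833772 held the letters and that at 2:164832622-164832871 did not. The matches of the 3 genes, in capitals, stand within the following stretches at X:134601174-134601221 (minus strand), 11:101069999-101070046 (plus strand) and 2:164833739-164833772 (plus strand).
Gla promoter: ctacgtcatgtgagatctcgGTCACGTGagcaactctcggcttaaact
Naglu promoter: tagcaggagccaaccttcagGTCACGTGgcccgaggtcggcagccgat
Ctsa promoter: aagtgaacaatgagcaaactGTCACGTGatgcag
Gla encodes α-galactosidase A, Naglu the α-N-acetylglucosaminidase of heparan sulphate breakdown, and Ctsa cathepsin A, the protein that protects Glb1 in the lysosome. Gla was a DEG in all 4 comparisons, with log2 fold changes of 1.31, 1.52, 1.2 and 1.41. Naglu rose by 0.93, 1.14, 0.74 and 0.63, and Ctsa by 0.95, 1.14, 0.80 and 0.86. A match describes the letters of this window and is no evidence that a factor bound there. Of the 9 senescence-associated genes, 7 had a promoter window and Glb1 was the single match among them.

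Plau encodes urokinase, the protease that turns plasminogen into plasmin at the cell surface (gene ID 18792, 14:20836662-20843388, plus strand). It showed the highest rise of the 9 genes at 2 weeks. At that time it stood at 9.88, 6.3 and 7.7 CPM in control lungs, at 30.9, 26.5 and 26.7 CPM after 65 Gy, and at 32.2, 26.9 and 49.3 CPM after 75 Gy. In the 6-week lungs it stood at 6.92, 6.77 and 6.83 CPM in control lungs, at 18.1 and 18.7 CPM after 65 Gy, and at 17.8, 17.2 and 19.6 CPM after 75 Gy. The lowest irradiated library of 6 weeks, at 17.2 CPM, was above the highest control of either time, at 9.88 CPM. Plau rose by 1.82 ± 0.19 at 65 Gy and 2.18 ± 0.19 at 75 Gy at 2 weeks, 3.52- and 4.53-fold, with adjusted p of 4.8e-05 and 5.43e-06. By the fibrosis stage it rose by 1.43 ± 0.21 and 1.41 ± 0.19, 2.69- and 2.66-fold, with adjusted p of 0.000493 and 9.73e-05. Without library 3134 the 75 Gy value at 2 weeks was 1.89, and without control library 3126 the 2-week values were 2 at 65 Gy and 2.37 at 75 Gy. The level at 75 Gy was lower at 6 weeks than at 2 weeks, and the difference between the 2 effects was -0.77 ± 0.27 with an unadjusted p of 0.0112 and an adjusted p of 0.201.

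Plaur encodes the urokinase receptor, which holds the enzyme at the cell surface (gene ID 18793, 7:24460937-24475970, plus strand). At 2 weeks it stood at 59.7, 44.7 and 47.8 CPM in control lungs, at 56.9, 59.9 and 52.2 CPM after 65 Gy, and at 58.2, 54.7 and 81.1 CPM after 75 Gy. The groups overlapped, and library 3134 held the highest value. After 6 weeks it stood at 50.4, 46.5 and 41.6 CPM in control lungs, at 42.7 and 59.1 CPM after 65 Gy, and at 56.3, 56.3 and 64.4 CPM after 75 Gy, where the groups did not overlap. The 75 Gy values were 0.35 ± 0.16 at both times, with adjusted p of 0.125 and 0.0914, and the 65 Gy values were 0.15 and 0.14. The 95% intervals of the 4 values ended at 0.69 or below, so the ligand changed at least 2-fold in comparisons in which a 2-fold change of the receptor was outside the interval. Plaur passed at 75 Gy and 6 weeks in a fit to the compared groups alone, with an adjusted p of 0.0124, and without library 3134, with 0.0419. At 75 Gy and 2 weeks it passed without control library 3126, the highest of its group, at 0.49 with an adjusted p of 0.0381.

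Among 13 other genes of the plasminogen system, 1, 1, 0 and 1 were DEGs. Without control library 3126, 2 were DEGs at either dose of 2 weeks. By the adjusted p, 4, 5, 1 and 6 rose and 1, 1, 0 and 1 fell. Serpine2, the urokinase inhibitor protease nexin-1, rose by 0.65, 0.80, 0.66 and 1. Itgav, the integrin subunit that binds vitronectin, rose by 0.41 and 0.42 at 2 weeks and by 0.20 at 75 Gy and 6 weeks. Serpinb2, the inhibitor PAI-2, was a DEG at both doses of 2 weeks from a very low level, 0 to 0.101 CPM in control lungs against 0.16 to 0.839 CPM after 65 Gy and 0.488 to 1.76 CPM after 75 Gy. Plau and the inhibitor gene Serpine2 thus both rose in all 4 comparisons.

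Urokinase and lysosomal enzymes are abundant in macrophages, and 12 macrophage and monocyte markers were measured beside Plau and Glb1. Their summed level was 5187 to 10859 CPM in control lungs of 2 weeks, 9689 to 10530 CPM after 65 Gy and 13029 to 17230 CPM after 75 Gy. By the fibrosis stage it was 4589 to 5061 CPM in controls, 12370 to 13534 CPM after 65 Gy and 15394 to 16126 CPM after 75 Gy. No marker was at 0 counts in any library, and 7, 8, 9 and 9 of the 12 were DEGs, all higher. The part of macrophages in the Plau and Glb1 values was not tested. Control library 3126, which stood apart from its mates, combined a summed macrophage level of 10859 CPM with 9.88 CPM of Plau and 23.2 CPM of Glb1. This was the lowest Glb1 of all libraries. Its mates, with sums of 5187 and 6982 CPM, held 6.3 and 7.7 CPM of Plau and 30.6 and 32.7 CPM of Glb1. Alveolar type 2 markers were also highest in library 3126 among these controls, at 32079 CPM against 23096 and 25987 CPM. Which of the 12 macrophage and monocyte markers carried its sum is not given here, so the sum may not stand for macrophages alone. The 65 Gy libraries of 2 weeks, with sums of 9689 to 10530 CPM, held 26.5 to 30.9 CPM of Plau and 43.4 to 46.8 CPM of Glb1. Between 2 and 6 weeks the summed level after 65 Gy was higher and Plau was lower, at 18.1 and 18.7 CPM.

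**Figure D3:**
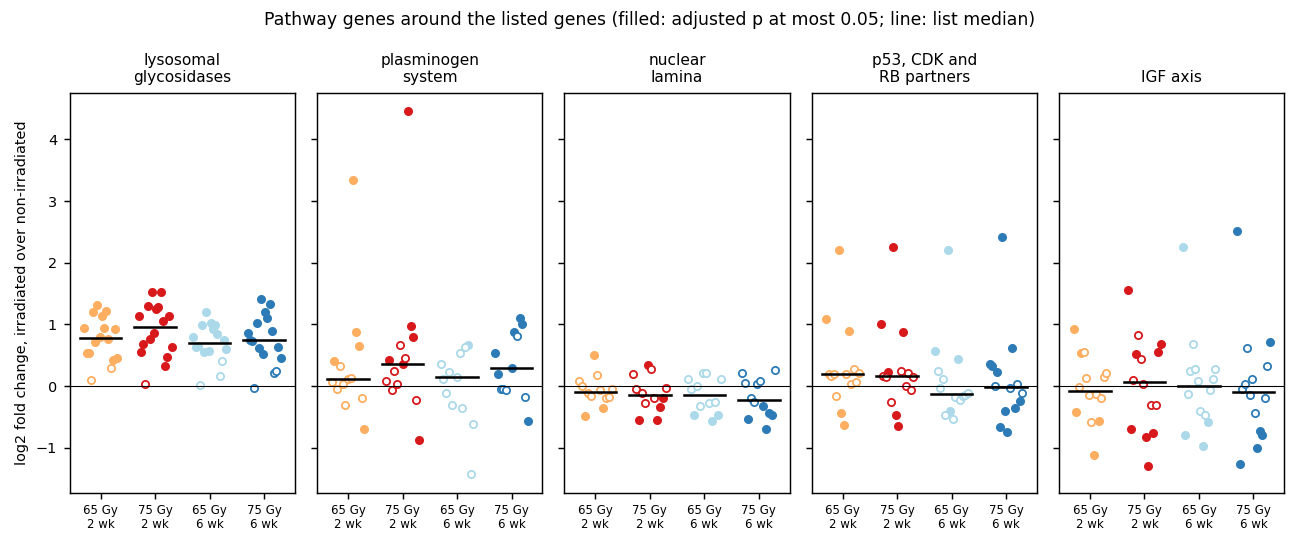
Fitted log2 fold change against control of the same time (y axis) for the genes of 5 pathway lists (panels) in the 4 comparisons (x axis). Filled points have an adjusted p of at most 0.05, open points do not, and lines are list medians. Plg at 6 weeks, at 0 counts in the 3 control libraries, is not drawn. The lysosomal medians lie at 0.70 to 0.96, and those of the nuclear lamina at -0.09 to -0.23.

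Igfbp3 encodes the main IGF carrier of the circulation and, in tissue, a secreted regulator of IGF access to its receptor (gene ID 16009, 11:7206086-7215498, minus strand). It is listed among SASP factors, and it fell in all 4 comparisons. At 2 weeks it stood at 80.7, 124 and 123 CPM in control lungs, at 46.2, 38.9 and 52.1 CPM after 65 Gy, and at 31.5, 37.3 and 15.7 CPM after 75 Gy. After 6 weeks it stood at 90.7, 109 and 94.3 CPM in control lungs, at 43 and 41.5 CPM after 65 Gy, and at 46.8, 45.4 and 39.4 CPM after 75 Gy. Every irradiated library was below every control library. Igfbp3 fell by 1.26 ± 0.24 at 65 Gy and by 1.95 ± 0.24 at 75 Gy at 2 weeks, to 0.418 and 0.258 of control, with adjusted p of 0.00375 and 9.37e-05. In the 6-week lungs it fell by 1.21 ± 0.27 and by 1.16 ± 0.24, to 0.432 and 0.448 of control, with adjusted p of 0.00952 and 0.0019. Library 3134 held the lowest level, and without it the 75 Gy value at 2 weeks was -1.67. Without control library 3126 the 2-week values were -1.43 and -2.12. At 65 Gy and 6 weeks, where the group has 2 libraries, the call was lost without either of them, with adjusted p of 0.0813 and 0.0803 and log2 fold changes of -1.23 and -1.17.

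Igfbp7 encodes a matrix-bound protein that binds IGFs weakly and is abundant in vessels (gene ID 29817, 5:77349240-77408045, minus strand). By the fibrosis stage it stood at 454, 474 and 451 CPM in control lungs, at 478 and 595 CPM after 65 Gy, and at 604, 704 and 728 CPM after 75 Gy. The 75 Gy libraries were above all others of that time. Igfbp7 rose by 0.56 ± 0.12 at 75 Gy, 1.48-fold, with an adjusted p of 0.00214, and the 65 Gy value was 0.22 ± 0.13 with an adjusted p of 0.275. At 2 weeks it stood at 493 to 511 CPM in control lungs and at 458 to 595 CPM in irradiated lungs, with log2 fold changes of 0.07 and 0.10. The 2 IGF binding protein genes thus moved in opposite directions at 75 Gy and 6 weeks. Polr2b, on the opposite strand, shares 85 of the 1209 exonic bases of Igfbp7. The library kit keeps strand, and the strand setting of the counting is not given in the sources used here.

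Of the other IGF axis genes 14 of 15 were tested, Igfbp1 having too few counts. DEGs among them numbered 0 higher and 1 lower at 65 Gy and 2 weeks, 1 and 1 at 75 Gy and 2 weeks, 1 and 0 at 65 Gy and 6 weeks, and 1 and 1 at 75 Gy and 6 weeks. Without library 3134, the count at 75 Gy and 2 weeks was 1 in all. Without control library 3126, the count at 65 Gy and 2 weeks was 2 in all. The lower DEG of 2 weeks was Igfbp6, a carrier that prefers IGF2, named after its values were seen, at -1.11 and -1.3. That of 6 weeks was Igf1r. Igf1, the growth factor itself, stood at 42 ± 7.7 CPM in control lungs of 2 weeks and 17.4 ± 1.56 CPM in those of 6 weeks. After irradiation it stood at 79.7 ± 3.96 and 124 ± 2.4 CPM at 2 weeks and at 83.7 ± 7.12 and 100 ± 11.8 CPM at 6 weeks. It rose by 0.92, 1.56, 2.26 and 2.52, with adjusted p between 2.63e-08 and 0.000279. In control lungs Igf1 fell by 1.27 ± 0.13 from 2 to 6 weeks with an adjusted p of 0.000154. The receptor gene Igf1r fell by 0.42, 0.69, 0.80 and 1.27, and Irs1, the adaptor that the receptor phosphorylates, fell by 0.57, 0.76, 0.58 and 0.80. The ligand gene therefore rose while the genes of its receptor, of the adaptor and of the binding protein Igfbp3 fell.

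Igfbp3 and Igfbp7 are both known from vessels and mesenchyme. The 12 endothelial markers summed to 6134 to 6528 CPM in control lungs of 2 weeks, 3826 to 4072 CPM after 65 Gy and 2347 to 4593 CPM after 75 Gy. At 6 weeks the sums were 6173 to 6311 CPM in controls, 3490 to 3654 CPM after 65 Gy and 2643 to 3160 CPM after 75 Gy. No endothelial marker was at 0 counts, and by the adjusted p 6, 10, 7 and 11 of the 12 fell. Of 10 fibroblast and mesenchyme markers, 0, 0, 1 and 3 rose and 2, 3, 1 and 2 fell, with summed levels of 2246 to 3966 CPM in control and 2765 to 4045 CPM in irradiated lungs. The lowest endothelial sum, 2347 CPM, and the lowest Igfbp3, 15.7 CPM, were both those of library 3134. Library 3132 of the same group had the highest endothelial sum of the irradiated libraries, 4593 CPM. Its Igfbp3, at 31.5 CPM, was lower than in every library but 3134. Igfbp7 rose at 75 Gy and 6 weeks, where the endothelial sum was 2643 to 3160 CPM. The part of these cells in the Igfbp3 and Igfbp7 values was not tested.

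**Figure D4:**
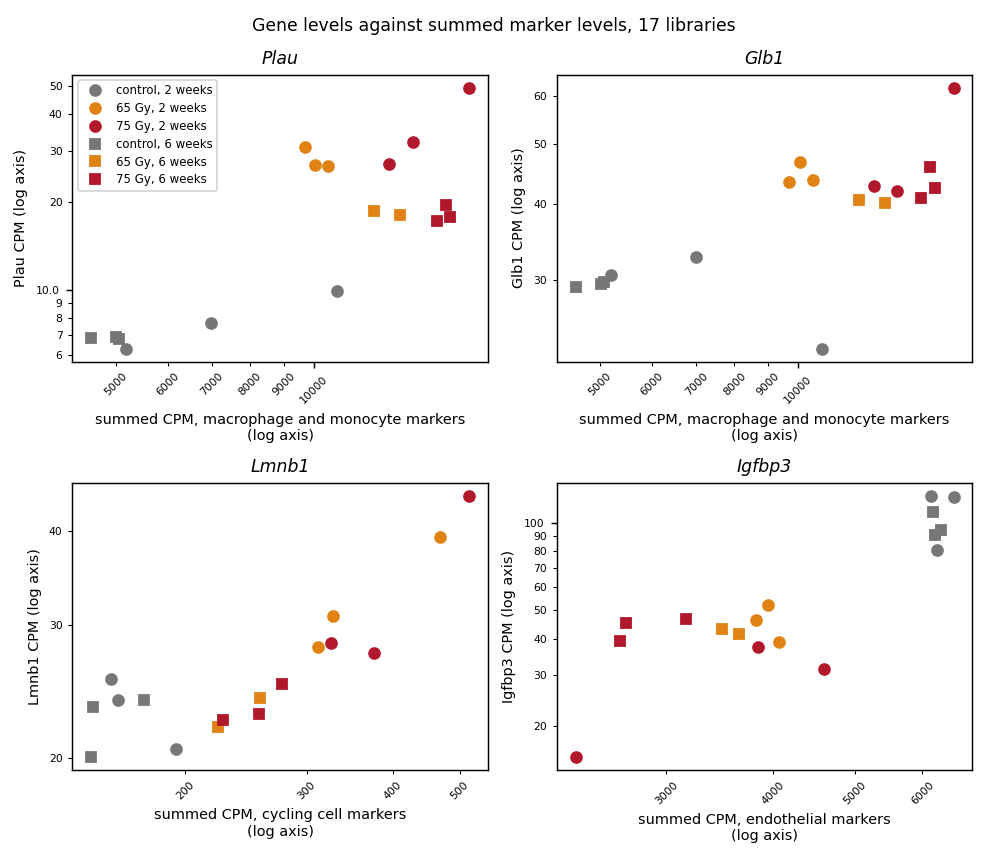
Level of Plau, Glb1, Lmnb1 and Igfbp3 in CPM (y axes, log scale) against the summed CPM of a marker list (x axes, log scale) in the 17 libraries, coloured by dose (grey control, orange 65 Gy, red 75 Gy) with circles for 2 weeks and squares for 6 weeks. In the Plau and Glb1 panels control library 3126 lies at a macrophage sum of 10859 CPM with Plau at 9.88 and Glb1 at 23.2 CPM, and in the Lmnb1 panel the 2 libraries with the highest cycling-cell sums, 469 and 516 CPM, have the highest Lmnb1. Endothelial sums of 4593 CPM and below are all from irradiated libraries, whose Igfbp3 lies at 15.7 to 52.1 CPM.

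As a wider view of the secretory phenotype, 24 cytokine, chemokine, protease and growth factor genes that are not among the 9 were listed. The list was written with earlier results of these data known, so its counts are a description only. DEGs among them numbered 12, 15, 14 and 15 that were higher, and 0, 0, 0 and 1 that were lower. Among all genes tested 4.35%, 7.74%, 5.28% and 10.4% were DEGs in either direction. The list's median log2 fold change was 1.62, 1.88, 1.91 and 2.51, beside -0.01, 0.00, 0.01 and 0.04 over all genes. Gdf15, a stress-induced cytokine of the TGF-β family and a p53 target, rose from 1.52 ± 0.153 CPM in control lungs of 2 weeks to 21.5 ± 1.44 and 22.7 ± 1.33 CPM, and from 1.14 ± 0.0622 CPM at 6 weeks to 10 ± 0.66 and 9.64 ± 1.07 CPM. The lower DEG was Vegfa, the endothelial growth factor gene, named after its values were seen, at -1.19 after 75 Gy and 6 weeks. The adjusted p of Gdf15 lay between 7.65e-11 and 3.42e-09. Mmp12, the macrophage elastase, stood at 5.33 ± 1.61 CPM in control lungs of 2 weeks and rose by 3.12, 4.30, 5.49 and 5.70. Ccl8, a monocyte-attracting chemokine, rose by 2.56, 3.40, 4.86 and 5.53. Several genes of the list, Mmp12 among them, are made by macrophages, whose summed markers are given above, and their part here was not tested.

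Whether 75 Gy differed from 65 Gy was tested directly. By edgeR none of the 9 genes passed at 2 weeks, where the lowest adjusted p was 0.693, or at 6 weeks, where it was 0.735, and 0% of all genes tested passed at either time. Unadjusted p was under 0.05 for 1 gene at each time, against 7.12% and 6.49% of all genes. At 2 weeks this was Igfbp3, with a difference of -0.70 ± 0.24 with a p of 0.0104. After 6 weeks it was Igfbp7, whose difference was 0.34 ± 0.13 with a p of 0.0219. The 95% interval of the dose difference was -1.20 to -0.19 for Igfbp3 at 2 weeks, -0.03 to 0.76 for Plau at 2 weeks and -0.41 to 1.34 for Cdkn2a at 6 weeks. For Glb1 it was -0.17 to 0.43 at 2 weeks and -0.24 to 0.43 at 6 weeks. DESeq2 called 0 of the 9 in both dose comparisons too. A p above the limit does not show that the doses acted alike.

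The same was done for time. By edgeR none of the 9 passed between control lungs of 6 and 2 weeks, where the lowest adjusted p was 0.503, 0 had an unadjusted p under 0.05 against 15.5% of all genes, and 0.576% of all genes were DEGs. DESeq2 called 0 of them in the 3 comparisons of time. For the effect of 65 Gy no difference between the stages was shown, with a lowest adjusted p of 0.579 for Cdkn2a at 1.23 ± 0.58 (95% interval -0.02 to 2.47), 0.0136% of all genes called, and an unadjusted p under 0.05 for 0 of the 9 against 8.65% of all genes. For 75 Gy the lowest adjusted p was 0.201, and 0.254% of all genes were called. An unadjusted p under 0.05 was reached for 3 genes there, against 16.1% of all genes. These were Plau at -0.77 ± 0.27, Igfbp3 at 0.80 ± 0.33 and Igfbp7 at 0.46 ± 0.17. In direction, the effects on Plau and Igfbp3 were nearer to 0 at 6 weeks than at 2 weeks, and that on Igfbp7 was farther from 0.

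To compare the genes with each other, levels were divided by exonic length (GENCODE M21) and given as CPM per kilobase. In control lungs of 2 weeks the order was Igfbp7 at 414 ± 8.08, Igfbp3 at 34.9 ± 7.88, Plaur at 19.4 ± 3, Cdkn2b at 17.8 ± 1.62, Glb1 at 9.6 ± 1.68, Lmnb1 at 7.88 ± 0.847, Cdkn2c at 6.45 ± 1.7, Plau at 3.36 ± 0.761 and Cdkn2a at 0.397 ± 0.281 CPM per kilobase (SD, n = 3). Plaur and Cdkn2b overlapped in range, as did Glb1 with Lmnb1 and Lmnb1 with Cdkn2c. After 75 Gy at 2 weeks Igfbp7 was still first at 444 ± 58, Plau stood at 15.3 ± 4.92 and Igfbp3 at 9.01 ± 3.57 CPM per kilobase. Igfbp3, which stood above Plau in control lungs, was thus below it in the mean, with ranges of 11.4 to 20.8 and 5.02 to 11.9 that overlapped. Cdkn2a was last in all 6 groups, at 1.66 ± 0.175 CPM per kilobase at its highest, after 75 Gy at 6 weeks, when Cdkn2b stood at 19.4 ± 0.666 and Cdkn2c at 8.2 ± 0.217.

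Genes with the most alike pattern were sought for each member by Pearson's r of log2 CPM over the 17 libraries among genes with a mean log2 CPM of at least 1. The libraries share groups, so these r describe the pattern and carry no test, and r within groups, after the group means were removed, is given beside them. Nearest to Plau was Fabp5, a fatty acid binding protein of macrophages and epithelium (r = 0.987, within groups 0.889), followed by the acute-phase gene Saa3 and the monocyte chemokine gene Ccl2 (both 0.98). Nearest to Igfbp3 was Gsn, gelsolin (0.978, within groups 0.874), followed by Abca8a and Abi3bp. Near to Glb1 were Colgalt1 (0.97, within groups 0.913) and the lysosomal galactosylceramidase gene Galc (0.969, within groups 0.892). Lmnb1 was nearest to Acod1, the itaconate-forming enzyme of activated macrophages (0.948, within groups 0.863), followed by Ly6e and Pitpna. Igfbp7 was nearest to Cd209a, a dendritic cell lectin (0.925, within groups 0.843), Serping1 and Prxl2a. For Cdkn2a the nearest were Cib2 (0.916, within groups 0.59), Nmnat3 and Slc35d2, and for Plaur they were Zdhhc13 (0.89), Ostf1 and Cct2. For Cdkn2c they were Park7 (0.853), Lsm10 and Gm14292, and for Cdkn2b Tcaf2 (0.804), Erich1 and Igfbp2. Among the 9 genes themselves, Cdkn2a had no r above 0.57 with any other member. The pair with the strongest relation was Plau and Igfbp3 (r = -0.94, within groups -0.89), and Plau and Plaur had 0.71 and within groups 0.8. Libraries 3134 and 3126, which stood apart from their mates, held the highest Plau and Plaur and the lowest Igfbp3 of their groups. They weigh heavily in the r within groups of both pairs, and no r was computed without them.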

How the data were processed

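Lung RNA of 6 groups was profiled in 17 libraries by bulk RNA-seq with a kit that selects poly(A) RNA and keeps strand. Per the study's methods, the authors used Trimmomatic for trimming, HISAT2 for alignment (build GRCm38.p6) and StringTie for expression values. The deposited values are whole-number read counts per gene, with no normalization. How they were derived from StringTie, and whether strand was used, is not given in the sources used here. Library totals of 46764569 to 66797879 leave counting error small except for Cdkn2a.

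Genes passing filterByExpr (minimum count 10, minimum total 15) were scaled by TMM and fitted with edgeR's quasi-likelihood test (edgeR 4.0.16, limma 3.58.1, R 4.3.3). All 17 libraries entered 1 fit, with 9 comparisons and Benjamini-Hochberg adjustment over 22052 genes. For a DEG, the adjusted p had to reach 0.05 or less and the log2 fold change 1 or more in either direction, the limits of the study's methods. The test was tried on simulated counts. Alternatives were DESeq2 1.42.0, other scaling, no filter, the compared groups alone and each library left out. Libraries of a group differed by more than counting noise and were kept as separate replicates.

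Besides the 9 genes, the 3 genes with the smallest p in any control comparison were named per pathway list, with Cdkn1a, Lmna, Igf1 and Mki67 as reference genes, and the 3 nearest genes by r per member. A few genes that this rule names are not reported here. Gla, Naglu and Ctsa were named after their promoters were searched. The members and lists were chosen with earlier results of these data known. Log2 CPM used a prior count of 2. Promoters are from RefSeq, GRCm38.p6. They were found for 7 of the 9 genes, and none is printed beyond those of the lysosomal genes.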

Additional observations from a re-analysis of the deposited data

How the results depend on the processing

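Plau rose and Igfbp3 fell under all alternatives that kept every library, and Plau also with each library left out. Cdkn2a at 75 Gy and 6 weeks stayed a DEG throughout, with a log2 fold change of 1.48 to 1.84 when a library was left out and 1.62 to 1.67 otherwise. Of 207 recounts of DEGs among the 9 genes, 203 equalled the count given or were within 1.5 times it. In the comparisons of doses and of times the count given was 0 and stayed 0. The 4 recounts that moved were all in comparisons of irradiated with control lungs. Without a fold limit the count was 4 at 75 Gy and 2 weeks and 5 at 75 Gy and 6 weeks. At 65 Gy and 6 weeks it was 1 to 3 with a library left out, and the lone remaining library of that group was then assumed to vary like the other groups. Of 1782 gene values, 16 passed the limit newly, 8 lost it and 75 changed sign, and no value that changed sign was called. Fitted to the compared groups alone, Glb1 and Lmnb1 at 75 Gy and 2 weeks were 0.77 and 0.52, with adjusted p of 0.0564 and 0.155. Counts of DEGs in the short lists also moved with single libraries. Cycling-cell DEGs at 65 Gy and 6 weeks numbered 0 without library 3138 and 6 without 3135, and at 75 Gy and 6 weeks 4 without 3136, 3137 or 3142. Lysosomal DEGs at 65 Gy and 6 weeks numbered 4 without 3126, 3132, 3135, 3142 or 3143, and the p53, CDK and RB list held 1 DEG at either dose of 2 weeks without 3126. The causes of these changes were not tested.

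Signs changed between settings where values lay near 0. At 65 Gy and 6 weeks Cdkn2c was 0.01 without the filter and 0.02 with upper-quartile factors or the compared groups alone. For 75 against 65 Gy, Cdkn2b at 2 weeks was 0.01 without the filter and with the compared groups alone and 0 with RLE factors and DESeq2, and Plau at 6 weeks was 0 with upper-quartile factors. The stage difference of Plaur was 0.01 at 65 Gy with upper-quartile factors or the compared groups alone, and at 75 Gy it was -0.01 without the filter and 0 with RLE factors and DESeq2. With a library left out, the ranges were as follows. At 65 Gy and 2 weeks, Cdkn2a was -0.45 to 0.63 and Igfbp7 -0.03 to 0.12. At 65 Gy and 6 weeks, Cdkn2b was -0.2 to 0.15, Cdkn2c -0.07 to 0.07, Lmnb1 -0.04 to 0.11 and Plaur -0.1 to 0.37, and at 75 Gy Lmnb1 was -0.01 to 0.11. For 75 against 65 Gy at 2 weeks, Cdkn2b was -0.13 to 0.1, Cdkn2c -0.15 to 0.35, Lmnb1 -0.23 to 0.18, Glb1 -0.08 to 0.23 and Igfbp7 -0.05 to 0.13. At 6 weeks the same difference was -0.21 to 0.14 for Cdkn2b, -0.04 to 0.08 for Lmnb1, -0.01 to 0.45 for Plaur, -0.07 to 0.02 for Plau and -0.01 to 0.13 for Igfbp3. Between controls, Lmnb1 was -0.14 to 0.02 and Glb1 -0.1 to 0.14. The stage difference at 65 Gy was -0.25 to 0.22 for Plaur, -0.06 to 0.23 for Igfbp3 and 0 to 0.31 for Igfbp7, and at 75 Gy -0.13 to 0.2 for Plaur.

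No paired analysis was possible because no number is shared between the groups, every library having its own. Counts of Cdkn2a were low, at 8 to 121 per library, and its spread between libraries adds to counting error.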
